A study of Homo sapiens with 6 samples.

Results

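The 4 arrays of LP-1 cells grown in acid were set as one side against the 2 control arrays, to describe what short-term and long-term acid culture had in common. The line was established from human multiple myeloma and stands for malignant plasma cells. All 6 arrays of the series entered the comparison. Control cells (Ctrl) grew in medium with an extracellular pH, pHe, of 7.4 and carry the time label 9 months. Short-term acid cells (SA) grew in a buffered acidic medium, pHe 6.8, and carry the label 2 weeks. The sample descriptions put SA at 2 to 3 weeks and the series design at 2 to 4 weeks. Long-term acid cells (LA) grew at the same pHe and carry the label 9 months, but their sample descriptions say 8 to 10 weeks and the design says 8 to 10 months. Every group had 2 arrays, described as biological replicates, and shared RPMI-1640 medium at 37 °C in 5% CO2, with 15% FBS, 2 mM GlutaMAX and 23.8 mM NaHCO3. The labels do not say how the medium was acidified. SA also differed by its label from the other groups in time in culture, and every group comes from one line.

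A gene was counted in the common acid response when it met 2 conditions. The mean of the SA and LA differences from Ctrl had to pass the limma test at an adjusted p under 0.05 (Benjamini-Hochberg over 21070 genes). All 4 acid arrays also had to lie above, or all 4 below, both Ctrl arrays; such genes are called rising or falling here. Since the test was on the average, a gene could be counted without passing at each duration alone. Values are array signals on a log scale taken as log2, so a difference of 1 would be a doubling if the base is 2. Genes were tested when their mean over the 6 arrays reached the median of all probe sets, 3.77; RIMS4 lay just inside at 3.7671 and TUBB8P5 just outside at 3.767. At the other threshold MZF1-AS1 lay inside, at an adjusted p of 0.0499, and NCLN outside, at 0.0501. Errors are standard errors of the fit. The p-values measure the spread between these arrays, and in bulk RNA a change in the share of cells cannot be told apart from a change per cell.

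Acid outside a cell is sensed by proton-activated receptors and channels and lowers the pH inside the cell, where the rate-limiting steps of glycolysis are sensitive to protons. Tumour cells that survive in acid are known to depend less on glycolysis and to keep their internal pH up with proton pumps, sodium-proton exchangers, bicarbonate transporters and carbonic anhydrases. In the bone marrow, myeloma cells meet low pH and low oxygen together. Many glycolytic genes are also targets of HIF-1, the transcription factor of the hypoxia response, which binds the DNA core ACGTG.

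The common response held 1075 genes, 459 higher and 616 lower at pHe 6.8, which is 5.1% of the genes tested (2.18% higher and 2.92% lower). Without the condition on overlap, 572 genes were called higher (2.71%) and 719 lower (3.41%), together 1291 or 6.13%. Conversely, 2022 genes (9.6%) had all acid arrays above both Ctrl arrays and 3096 (14.7%) below, most of them without passing the test. Splitting 6 arrays into 4 and 2 gives 15 arrangements, so the lowest p an exact permutation test could reach is 0.0667, and limma alone was used for single genes. With replicate number as a block, 142 higher (0.674%) and 115 lower genes (0.546%) remained, together 257 (1.22%), all among the 1075. Without Ctrl replicate 2 the counts were 48 and 49, and without Ctrl replicate 1 they were 116 and 76. Without LA replicate 1 they were 183 and 182, without LA replicate 2 they were 221 and 211, and without SA replicate 2 the lower count was 341. A fit that treats the 4 acid arrays as one group, so that the gap between SA and LA counts as spread, called 5 higher genes (0.0237%) and 6 lower (0.0285%).

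**Figure D1:**
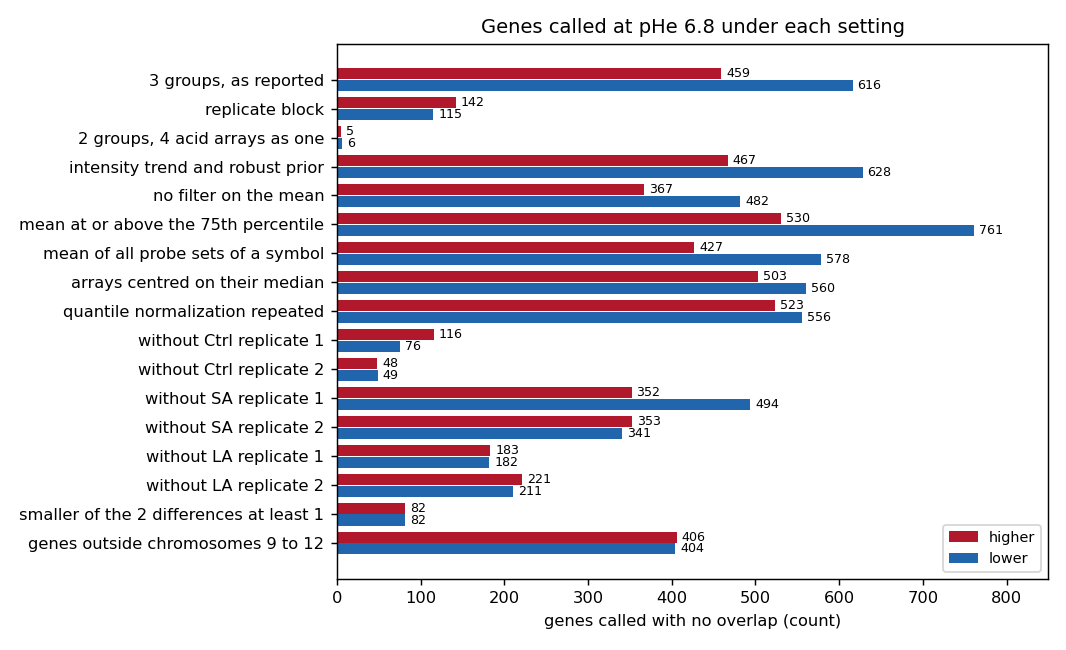
Number of genes higher (red) and lower (blue) at pHe 6.8 that passed the test with no overlap between acid and Ctrl arrays, under the reported fit (459 and 616) and each alternative. The counts fell most in the fit with 2 groups (5 and 6) and without Ctrl replicate 2 (48 and 49).

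The arrays carried the plasma cell profile that the label implies. Of 10 plasma cell markers, 9 had a mean above 8, with CD38, a surface enzyme of plasma cells, the brightest at 17.996. The mean level of the 10 was 13.51 and 13.45 in Ctrl, 14.07 and 14.04 in SA and 12.82 and 12.88 in LA. FCRL5, at 2.39 to 2.81, was too dim to be tested. Of the 9 tested, 0 were in the common response, against 5.1% of all genes tested, and 3 passed the averaged test with overlapping arrays. SLAMF7 was low in LA, at 7.47 and 7.42 against 14.71 and 14.48 in Ctrl. TNFRSF17 was higher in SA (16.67 and 16.36, against 14.14 and 14.30) and CD38 in LA (19.05 and 19.14, against 17.53 and 17.36). The lists for T and NK cells, monocytes and macrophages, and erythroid cells and platelets had no marker above 8. In the stromal and endothelial list 1 marker did, PECAM1 at 11.30, an adhesion protein that plasma cells also carry. Of all these markers only HBD, a globin gene, was in the common response, at 3.99 and 4.23 in Ctrl, 4.89 and 4.91 in SA and 5.49 and 5.15 in LA, beside an array median of 3.77. It was not called with the replicate block.

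The 12 protein-coding genes that rose most at both durations, judged by the smaller of the 2 differences, included IFI16, SOCS2, TXNIP and GABRB2. IFI16, an interferon-inducible sensor of DNA, measured 9.63 and 9.13 in Ctrl, 11.83 and 12.46 in SA and 12.10 and 11.95 in LA. It rose by 2.71 ± 0.23 (adjusted p = 0.00818), and the lowest acid array stood more than 2 units above the higher Ctrl array. SOCS2, a feedback inhibitor of cytokine and growth hormone signalling, measured 11.83 and 11.43 in Ctrl, 13.84 and 14.23 in SA and 13.95 and 13.91 in LA. Its rise of 2.35 ± 0.18 (adjusted p = 0.00771) was nearly equal at the 2 durations, 2.41 in SA and 2.30 in LA. TXNIP, which binds thioredoxin and restrains glucose uptake, measured 8.11 and 7.84 in Ctrl, 10.56 and 11.03 in SA and 10.30 and 10.02 in LA, a rise of 2.50 ± 0.19 (adjusted p = 0.00771). GABRB2, a subunit of the GABA-A receptor, measured 7.16 and 6.92 in Ctrl and 8.89 to 9.42 in acid, a rise of 2.15 ± 0.19.

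ANXA6, a calcium-dependent membrane-binding annexin, measured 8.41 and 7.80 in Ctrl, 10.22 and 10.74 in SA and 11.20 and 11.37 in LA, a rise of 2.78 ± 0.23. DPYSL3, a cytoskeletal protein of growing neurites, measured 6.51 and 5.81 in Ctrl, 8.16 and 8.80 in SA and 9.28 and 9.49 in LA, a rise of 2.77 ± 0.27. SEMA3C, a secreted semaphorin, rose by 2.20 ± 0.22. In these 3 genes both LA arrays lay above both SA arrays, but their LA minus SA differences did not pass the test (adjusted p from 0.0777 to 0.108). FAT1, a giant cadherin, measured 5.53 and 4.93 in Ctrl, 8.48 and 9.13 in SA and 7.06 and 7.06 in LA. RASGEF1B, an exchange factor for Ras-family proteins, measured 5.11 and 5.07 in Ctrl, 8.43 and 9.12 in SA and 7.40 and 6.95 in LA. HEY1, a repressor induced by Notch, measured 5.83 and 4.91 in Ctrl, 9.34 and 9.80 in SA and 6.67 and 7.50 in LA. In FAT1, RASGEF1B and HEY1 the rise was larger in SA than in LA, and that difference passed the test (adjusted p = 0.0127, 0.0135 and 0.0121). CD180, a Toll-like receptor homologue of B cells, went the other way, with 7.85 and 7.18 in Ctrl, 8.83 and 9.94 in SA and 17.29 and 16.80 in LA. RGS6, a regulator of G protein signalling, rose by 1.88 ± 0.20, but another probe set of that gene showed differences of 0.035 in SA and -0.265 in LA, and the mean of its probe sets missed the threshold (0.88, adjusted p = 0.0514). It also missed it without Ctrl replicate 2 (1.67, adjusted p = 0.0551).

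The 12 genes that fell most at both durations included ADM, SPP1, AK4 and HLA-DOA. ADM encodes adrenomedullin, a vasodilator peptide and a well-known hypoxia target. It measured 11.76 and 11.49 in Ctrl, 8.06 and 8.64 in SA and 8.58 and 8.17 in LA, and fell by 3.26 ± 0.22 (adjusted p = 0.0050). The SA and LA arrays of ADM interleave, with differences of -3.27 and -3.24. SPP1, osteopontin, a secreted integrin ligand of bone, measured 6.96 and 6.98 in Ctrl, 3.88 and 3.42 in SA and 3.41 and 3.88 in LA, a difference of -3.32 ± 0.20 (adjusted p = 0.00434). Its acid values lie at the array median of 3.77, and no detection calls were given. AK4, a mitochondrial adenylate kinase and hypoxia target, measured 6.88 and 5.99 in Ctrl, 3.36 and 4.16 in SA and 3.86 and 3.92 in LA, also down to the median. HLA-DOA, a chaperone subunit that tunes peptide loading of MHC class II, had the largest fall, from 9.36 and 9.40 in Ctrl to 6.04 and 4.78 in SA and 4.05 and 5.00 in LA (-4.42 ± 0.41, adjusted p = 0.00977).

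SPRED2, an inhibitor of Ras-MAPK signalling, measured 6.73 and 7.01 in Ctrl, 4.60 and 4.40 in SA and 4.73 and 4.69 in LA, and fell by 2.27 ± 0.14. ETV5, an ETS factor induced by growth factor signalling, measured 7.47 and 7.73 in Ctrl and 5.09 to 6.10 in acid, and without Ctrl replicate 2 its difference of -1.99 missed the threshold (adjusted p = 0.0612). NDNF, a secreted neurotrophic factor, measured 10.74 and 9.91 in Ctrl, 5.78 and 6.21 in SA and 8.06 and 8.25 in LA. CEP55, a midbody protein needed for the last cut of cell division, measured 13.45 and 13.46 in Ctrl, 10.17 and 9.88 in SA and 11.54 and 11.75 in LA. GNAL, a stimulatory G protein alpha subunit, measured 9.32 and 9.26 in Ctrl, 5.60 and 5.48 in SA and 7.53 and 7.63 in LA. FHL3, a LIM-domain protein, measured 7.76 and 7.60 in Ctrl, 4.96 and 4.84 in SA and 5.65 and 5.90 in LA. In NDNF, CEP55, GNAL and FHL3 the LA arrays lay between SA and Ctrl, and LA minus SA passed the test (adjusted p from 0.000892 to 0.0166). With the replicate block LA minus SA did not pass in FHL3 (adjusted p = 0.065). UAP1L1 fell by 1.87 ± 0.24 and LIPH, a phospholipase, by 1.75 ± 0.24, and both missed the threshold without Ctrl replicate 2 (adjusted p = 0.0634 and 0.0849). The other 20 of these 24 genes passed it in each alternative in which they were tested, except that the 2-group fit called 6 of the 24.

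**Figure D2:**
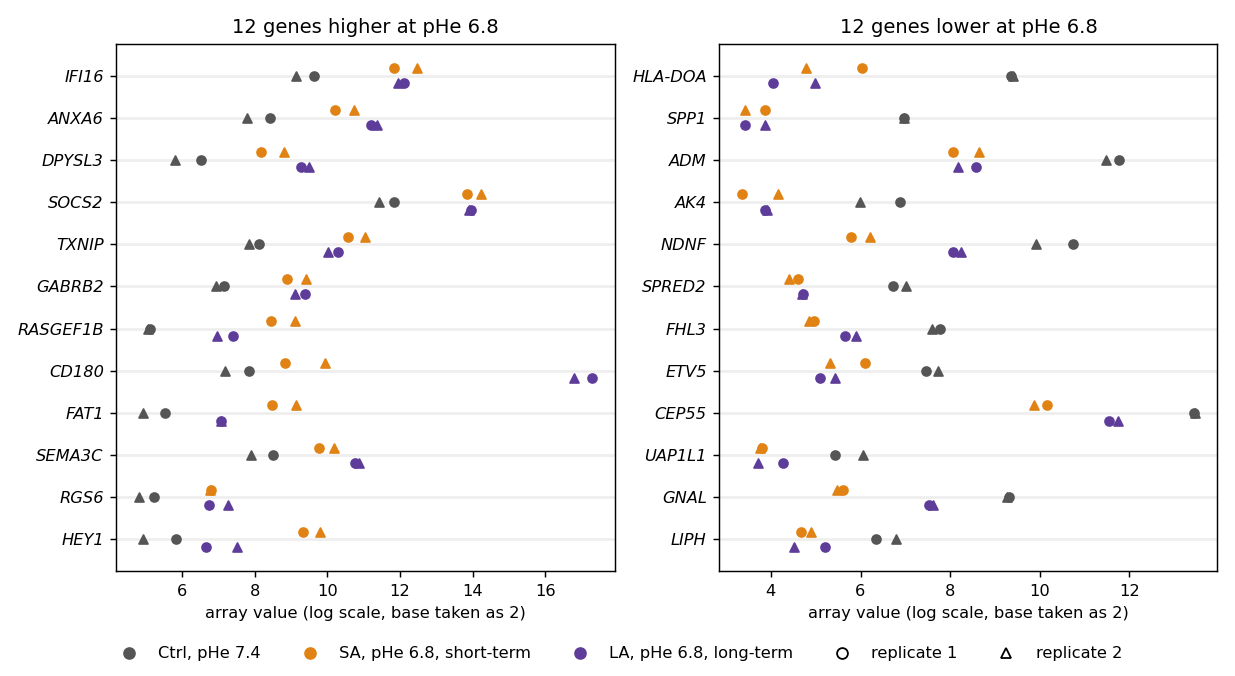
Array values on a log scale, base taken as 2, of the 12 genes higher and the 12 genes lower at pHe 6.8 with the largest smaller-of-2 difference, for Ctrl (grey), SA (orange) and LA (purple), with circles for replicate 1 and triangles for replicate 2. In each row the 4 acid arrays lie on one side of both Ctrl arrays, and CD180 stands out with its LA arrays at 17.29 and 16.80.

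When SA and LA were treated as one group 11 genes were called, with adjusted p from 0.0274 to 0.0455. Beside IFI16, SOCS2, GABRB2, ADM, SPP1, SPRED2 and the noncoding LINC00869 they were FGF2, NOCT, MRPL4 and SUPT3H, named after their values had been seen. FGF2, a fibroblast growth factor, measured 7.03 and 7.10 in Ctrl, 5.58 and 5.62 in SA and 5.58 and 5.40 in LA. NOCT, a circadian phosphatase of NADPH, measured 11.37 and 11.23 in Ctrl, 9.74 and 9.77 in SA and 9.79 and 9.94 in LA. MRPL4, a protein of the mitochondrial ribosome, measured 12.01 and 12.12 in Ctrl and 10.16 to 10.49 in acid. SUPT3H, a subunit of the SAGA coactivator complex, measured 9.37 and 9.30 in Ctrl and rose to 11.17 and 11.16 in SA and 11.07 and 10.99 in LA. The LA minus SA differences of these 4 genes did not pass the test (adjusted p from 0.544 to 0.709).

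The differences were larger in SA than in LA. Tested alone, SA minus Ctrl was called higher in 6.23% and lower in 8.55% of genes, and LA minus Ctrl in 1.61% and 1.59%. LA minus Ctrl was thus called in fewer genes (339 higher and 336 lower) than the common response holds. LDHA, for example, was counted as falling with an LA difference of -0.20 (adjusted p of LA minus Ctrl 0.543). Among the 459 rising genes the median difference from Ctrl was 1.157 in SA and 0.785 in LA, and among the 616 falling genes it was -1.008 and -0.703. The SA difference was the larger one in 320 of the rising and 435 of the falling genes. LA minus SA was called in 439 of the 1075, and in 344 of these the SA difference was the larger; with the replicate block 253 were called. Over all genes tested LA minus SA was called in 15.9%. Since both durations share the Ctrl arrays, the 2 sets of differences are given side by side with no measure of their likeness. Differences of at least 1 at both durations were found for 82 rising and 82 falling genes, and of at least 2 for 7 and 6. Of the rising genes 26 had a Ctrl mean below the array median, and of the falling genes 27 had an acid mean below it.

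The excess of one duration over the other was ranked only among protein-coding genes of the common response. The largest excess in SA was seen for CFAP126, a protein of motile cilia. It measured 4.21 and 4.40 in Ctrl, 11.11 and 11.04 in SA and 4.95 and 4.76 in LA. NSG2, a neuronal endosomal protein, measured 3.47 and 3.63 in Ctrl, 9.61 and 10.13 in SA and 4.87 and 4.44 in LA. TMEM140 differed from Ctrl by 4.81 in SA and 0.41 in LA, and RCAN2, an inhibitor of calcineurin, by 3.97 and 0.81. In each of these 4 the LA arrays lay near Ctrl yet still above both Ctrl arrays. The largest excess in LA, after CD180, was seen for SULF2, an extracellular sulfatase that trims heparan sulfate and whose dimmer probe set overlapped Ctrl (-0.464 in SA and -0.076 in LA). It measured 16.10 and 15.97 in Ctrl, 15.86 and 15.50 in SA and 12.09 and 12.59 in LA. DRAM1, a lysosomal membrane protein induced by p53, measured 6.06 and 6.50 in Ctrl, 6.70 and 6.83 in SA and 9.78 and 9.31 in LA. ID3, an inhibitor of E-protein transcription factors, measured 4.07 and 4.15 in Ctrl, 4.54 and 4.66 in SA and 7.40 and 7.26 in LA.

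The condition on overlap set aside genes that the averaged test alone had called, 113 higher and 103 lower. Their medians show one duration behind the average: 1.645 in SA and 0.164 in LA for the higher genes, -1.663 and -0.04 for the lower. NCAM1, the adhesion molecule CD56, measured 5.10 and 5.54 in Ctrl, 12.60 and 11.76 in SA and 4.45 and 4.76 in LA. A dimmer NCAM1 probe set, with a mean of 2.95, differed by 0.01 in SA and 0.021 in LA. EMP2, a tetraspan membrane protein, measured 13.07 and 13.08 in Ctrl, 7.57 and 7.23 in SA and 13.03 and 13.23 in LA. RANBP3L had the reverse pattern, with 0.27 in SA and 8.29 in LA, as did TTN, the giant muscle protein titin (-1.42 and 6.98), and SYCP3, of the meiotic synaptonemal complex (-0.15 and 4.72). CD48, a ligand of SLAM-family receptors, measured 12.42 and 12.51 in Ctrl, 12.99 and 11.92 in SA and 6.05 and 6.90 in LA. SLAMF7, a plasma cell surface receptor, differed from Ctrl by 2.17 in SA and -7.15 in LA, and IL6R, the interleukin-6 receptor, by 0.69 and -4.74. A dimmer IL6R probe set, with a mean of 5.41, did not follow, with -0.025 in SA and -0.213 in LA.

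In 2294 genes the SA and LA differences had opposite signs with LA minus SA called, and in 107 of these the average was still called, as in NCAM1 and SLAMF7. TMEFF1, a transmembrane protein with follistatin-like domains, had an averaged difference of -0.01 ± 0.18, made of -2.29 in SA and 2.28 in LA. S100A11, a calcium-binding protein, averaged -0.26, made of 2.79 and -3.31. S1PR1, the sphingosine phosphate receptor of lymphocyte exit, averaged 0.48, made of -2.58 and 3.55. Averages of opposite shifts were called in ITGB7 (-1.21) and TMT1A (1.49). ITGB7, an integrin subunit of homing to gut, measured 11.65 and 11.51 in Ctrl, 6.41 and 6.46 in SA and 14.26 and 14.35 in LA. TMT1A, a methyltransferase, differed from Ctrl by -3.21 in SA and 6.19 in LA. HVCN1, the voltage-gated proton channel, is described with the acid transporters.

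**Figure D3:**
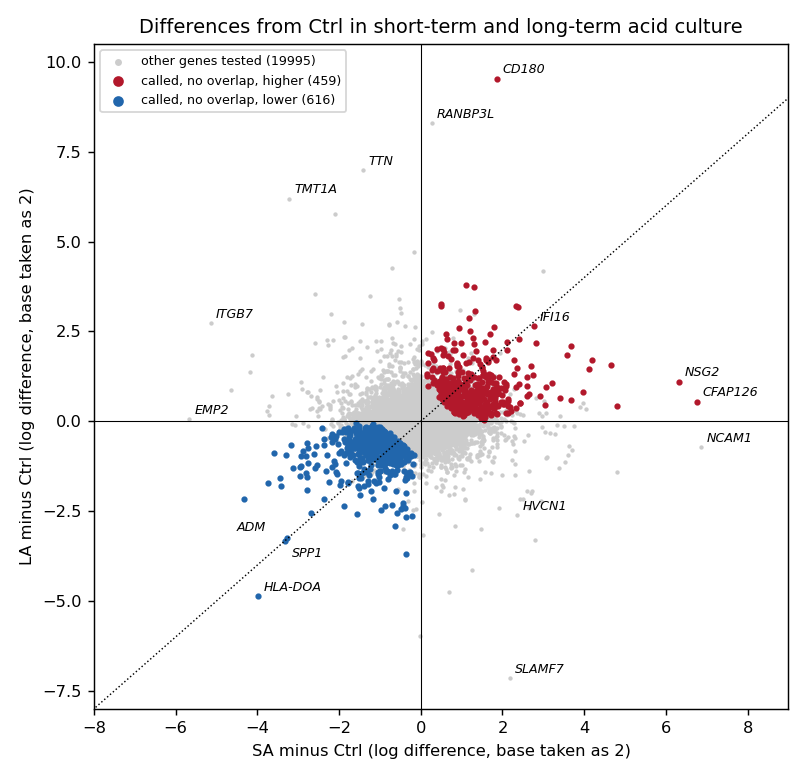
Difference from Ctrl in short-term (SA, x axis) and long-term (LA, y axis) culture at pHe 6.8, both on a log scale with the base taken as 2, for 21070 genes; the 459 rising genes are red, the 616 falling genes blue, the other 19995 grey, and the dotted line marks equal differences. Genes near the dotted line, such as ADM, SPP1 and IFI16, changed alike at both durations, whereas NCAM1, EMP2 and SLAMF7 lie near one axis or in opposite quadrants; both axes share the Ctrl arrays.

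In the lists of acid handling no gene passed the test of the common response. Of 12 transporters, exchangers and carbonic anhydrases tested, 0 passed. So did 0 of 16 subunits of the V-ATPase, the proton pump of lysosomes, and 0 of 3 acid-sensing receptors and channels. At the 5.1% share of all genes tested, lists of this size would hold few members or none. Tested alone, SA minus Ctrl was called higher in 3 and lower in 1 of the 12, and LA minus Ctrl lower in 1. Of the V-ATPase subunits 2 were called higher in SA. SLC9A9, an endosomal sodium-proton exchanger, had the largest averaged difference, with 6.81 and 5.71 in Ctrl, 7.87 and 8.29 in SA and 7.12 and 7.95 in LA (1.55 ± 0.38, adjusted p = 0.0696). SLC26A11, an anion exchanger of the SLC26 family, also had all acid arrays above Ctrl, at 0.55 (adjusted p = 0.086). HVCN1 measured 13.08 and 12.73 in Ctrl, 15.40 and 15.11 in SA and 9.94 and 10.63 in LA, so its average of -0.13 (adjusted p = 0.782) stands for opposite shifts. CA2, a cytosolic carbonic anhydrase, differed by -0.84 in SA and 0.72 in LA. The bicarbonate transporter SLC4A7 differed by -0.22 and 0.26, and CA12, a carbonic anhydrase of the cell surface, by -0.13 and -0.16. The proton-sensing receptor GPR65 differed by 0.32 and -0.18. The remaining members of those 2 lists differed on average by -0.32 to 0.21. The V-ATPase subunits differed on average by -0.315 (ATP6V1F) to 0.56 (ATP6V0E1), the latter made of 1.53 in SA and -0.41 in LA (adjusted p of the average 0.0694). Their differences have standard errors such as 0.12 for CA2 and 0.17 for SLC4A7.

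Glycolysis held the largest share of falling genes among the lists. Of 17 members tested 8 fell and 0 rose, which is 47.1% against 2.92% of all genes, and the median averaged difference was -0.611 (SA -0.756, LA -0.335) against -0.034 over all genes. HK2, the inducible hexokinase that traps glucose in the cell, measured 9.76 and 9.88 in Ctrl, 8.60 and 7.94 in SA and 7.03 and 7.44 in LA, and fell by 2.07 ± 0.22 (adjusted p = 0.0126). PFKFB3, which makes the activator of phosphofructokinase, measured 7.74 and 7.24 in Ctrl, 4.75 and 5.16 in SA and 6.26 and 6.30 in LA, and fell by 1.88 ± 0.19. TPI1, triosephosphate isomerase, fell from 12.56 and 12.53 to between 10.25 and 11.57. PFKP, the platelet phosphofructokinase, fell from 14.16 and 13.82 to between 12.61 and 12.94. LDHA, which reduces pyruvate to lactate, measured 19.26 and 19.20 in Ctrl, 17.45 and 17.24 in SA and 18.91 and 19.16 in LA, so that its LA arrays lay just under Ctrl and LA minus SA passed the test (adjusted p = 0.00232). LDHB measured 18.09 and 17.85 in Ctrl, 17.37 and 17.56 in SA and 16.93 and 16.95 in LA. HK1 fell by 1.05 ± 0.16 and PGAM1, phosphoglycerate mutase, by 0.93 (adjusted p = 0.0345). With the replicate block 3 of the 8 were called (HK2, PFKFB3 and TPI1), and without Ctrl replicate 1 and 2 the counts were 3 and 1. Outside chromosomes 9 to 12 lie 8 of the 17 tested members, and of those 1 fell, HK2. The chromosomes are described with the other shared features. Among proteins of lactate handling, EMB, a chaperone of monocarboxylate transporters, rose by 1.06 ± 0.12, with 0.25 in SA and 1.87 in LA, and was not called without Ctrl replicate 1 or 2.

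Of 20 hypoxia targets tested 5 fell (25%, against 2.92% of all genes) and 0 rose, with a median of -0.44 (SA -0.512, LA -0.603); all 5 were called with the replicate block, and 3 without Ctrl replicate 1 or 2. Beside ADM they were BNIP3, SLC2A1, NDRG1 and DDIT4. BNIP3, a receptor for the removal of mitochondria, measured 9.46 and 8.90 in Ctrl, 6.99 and 7.46 in SA and 7.45 and 7.58 in LA. SLC2A1, the glucose transporter GLUT1, measured 8.13 and 7.48 in Ctrl, 5.84 and 5.62 in SA and 5.98 and 6.80 in LA. NDRG1, a stress-induced growth regulator, measured 7.36 and 7.45 in Ctrl and 5.92 to 6.22 in acid. DDIT4, an inhibitor of mTORC1 also induced by the integrated stress response, measured 15.83 and 15.58 in Ctrl, 14.05 and 13.92 in SA and 15.04 and 15.26 in LA. HIF1A itself differed by -0.55 in SA and 0.01 in LA, and VEGFA, the angiogenic factor, by 0.10 and -0.84; neither passed. Outside chromosomes 9 to 12, 2 of 15 tested members fell.

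The promoters of LDHA, BNIP3, HK2 and AK4, falling genes of glycolysis or the hypoxia response, are shown because they hold the letters ACGTG at least 2 times. Other named genes do so too, such as BAX (9 matches) among the falling genes and ANXA6, IRF9 and KLF6 (2 each) among the rising ones. The 4 shown were chosen after the motif counts were known. The sequences are those of RefSeq on GRCh38.p14, 250 bases before to 50 after the start, 5′ to 3′ on the gene's strand, and capitals mark ACGTG on either strand. A match on each strand overlaps in every full CACGTG, which is also the E-box. LDHA lies at chr11:18394313-18394612 (plus strand), BNIP3 at chr10:131981874-131982173 (minus), HK2 at chr2:74833877-74834176 (plus) and AK4 at chr1:65147302-65147601 (plus).
LDHA: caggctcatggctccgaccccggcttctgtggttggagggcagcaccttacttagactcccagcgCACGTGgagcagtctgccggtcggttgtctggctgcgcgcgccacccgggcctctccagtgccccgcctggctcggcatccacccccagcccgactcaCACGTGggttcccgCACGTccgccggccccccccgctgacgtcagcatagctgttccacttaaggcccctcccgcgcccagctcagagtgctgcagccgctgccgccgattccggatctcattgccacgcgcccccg
BNIP3: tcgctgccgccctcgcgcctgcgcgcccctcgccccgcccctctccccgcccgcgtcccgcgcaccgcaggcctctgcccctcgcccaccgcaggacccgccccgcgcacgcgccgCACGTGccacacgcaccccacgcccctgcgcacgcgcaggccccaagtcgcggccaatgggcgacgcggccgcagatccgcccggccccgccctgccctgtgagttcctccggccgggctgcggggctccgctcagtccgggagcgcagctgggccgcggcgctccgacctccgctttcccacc
HK2: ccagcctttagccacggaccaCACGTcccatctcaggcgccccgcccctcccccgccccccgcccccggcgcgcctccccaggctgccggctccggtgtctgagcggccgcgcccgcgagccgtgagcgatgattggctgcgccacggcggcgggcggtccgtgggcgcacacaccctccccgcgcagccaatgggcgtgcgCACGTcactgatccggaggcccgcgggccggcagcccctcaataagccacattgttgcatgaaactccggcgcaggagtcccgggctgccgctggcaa
AK4: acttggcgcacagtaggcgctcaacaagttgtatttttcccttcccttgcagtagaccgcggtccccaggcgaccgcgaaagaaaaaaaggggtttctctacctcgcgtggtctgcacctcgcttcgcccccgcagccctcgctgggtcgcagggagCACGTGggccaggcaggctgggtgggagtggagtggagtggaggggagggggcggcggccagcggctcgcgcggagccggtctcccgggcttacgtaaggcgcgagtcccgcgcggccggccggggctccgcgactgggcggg
LDHA has 5 matches and the others 2 each, whereas the ADM window has 0. ACGTG was in 26.2% of the promoters of 10021 protein-coding genes tested, in 27.5% of 418 falling genes and in 30% of 233 rising genes. The cAMP response element TGACGTCA, present once in the LDHA window, was in 3.2%, 4.07% and 4.72%. The E2F letters GGCGGGAA were in 4.98%, 6.46% and 2.58%, and the AP-1 letters TGACTCA in 2.9%, 1.91% and 3.0%. Differences between these shares were not tested, and a match is a string of letters, not a bound site.

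Genes of lipid synthesis were among those that fell. For comparison, 2.92% of all genes tested and 4.07% of protein-coding genes fell. Of 19 genes of cholesterol synthesis and uptake 5 fell (26.3%) and 0 rose, 1 of them called with the block, and without Ctrl replicate 1 or 2 the count was 1. MVD, the decarboxylase of mevalonate diphosphate, measured 10.28 and 10.12 in Ctrl, 7.26 and 7.28 in SA and 9.24 and 9.25 in LA, and fell by 1.95 ± 0.12 (adjusted p = 0.00434). HMGCS1, the synthase ahead of the rate-limiting reductase, measured 16.81 and 17.27 in Ctrl, 15.61 and 14.86 in SA and 16.43 and 16.50 in LA. SC5D, DHCR7 and TM7SF2, late enzymes of sterol synthesis, fell by 0.85, 0.68 and 0.61. Outside chromosomes 9 to 12, 2 of 14 tested members fell, MVD and HMGCS1. Of 12 genes of fatty acid synthesis and storage 3 fell (25%), 0 of them called with the block or without either Ctrl array. ACLY, which makes cytosolic acetyl-CoA, measured 16.05 and 15.97 in Ctrl, 14.61 and 14.70 in SA and 15.34 and 15.37 in LA. SCD, the desaturase, differed by -1.39 in SA and -0.29 in LA, and ACSS2, which activates acetate, by -1.33 and -0.27. A dimmer ACSS2 probe set below the array median overlapped Ctrl (0.072 and -0.116). For ACLY, SCD, ACSS2 and MVD both LA arrays lay between SA and Ctrl, and LA minus SA passed the test (adjusted p from 0.000969 to 0.0196). With the block LA minus SA did not pass in ACLY (adjusted p = 0.112). Oxidative phosphorylation had 3 falling members of 39 (7.69%), NDUFA8, CYCS and NDUFA9, none of which was called with the block; a dimmer NDUFA8 probe set differed by 0.564 in SA and -0.648 in LA. In the lists for the TCA cycle (18 tested) and fatty acid oxidation (17 tested) 0 members met both conditions, and 2 and 1 passed the averaged test with overlapping arrays.

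In MHC class II presentation 5 of 13 members tested fell (38.5%) and 0 rose, with a list median of -1.182 made of -0.357 in SA and -2.008 in LA; 2 were called with the block, and 1 without Ctrl replicate 1 or 2. HLA-DQB1, a chain of the peptide-presenting dimer, measured 13.33 and 13.31 in Ctrl, 12.93 and 12.54 in SA and 10.55 and 10.99 in LA. HLA-DPB1 measured 15.38 and 15.33 in Ctrl, 15.18 and 14.64 in SA and 12.77 and 13.37 in LA. HLA-DMA, a chain of the peptide-loading chaperone, measured 14.41 and 14.25 in Ctrl, 14.19 and 13.62 in SA and 11.68 and 12.27 in LA, and HLA-DPA1 differed by -0.36 in SA and -2.01 in LA. HLA-DOA stood apart from these by its fall of 3.97 already in SA. CIITA, the master activator of the class, differed by -0.44 and -1.24 (adjusted p of the average 0.0611). HLA class II genes are alike in sequence, and probes may not separate them. MHC class I presentation had 0 of 13 members called. Over all genes tested 2.92% fell.

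Of 16 transcription factors of plasma cells and B cells 4 rose (25%, against 2.18% of all genes) and 0 fell; 2 were called with the block, and 2 without Ctrl replicate 1 or 2. ID2, like ID3 an inhibitor of E-proteins, measured 9.20 and 8.53 in Ctrl, 10.13 and 10.21 in SA and 12.38 and 12.84 in LA, a rise of 2.52 ± 0.23 (adjusted p = 0.00946). EBF1, a factor of early B cells, measured 5.69 and 5.30 in Ctrl, 7.24 and 6.87 in SA and 6.45 and 7.12 in LA. BACH2, which restrains plasma cell differentiation, measured 8.82 and 8.96 in Ctrl, 9.15 and 9.19 in SA and 10.42 and 10.19 in LA. Dimmer BACH2 probe sets, with means from 3.114 to 4.829, did not all follow it: in 3 of 4 the acid arrays overlapped Ctrl, with SA differences of -0.445, -0.018 and -0.174. Among plasma cell surface proteins CD28, a costimulatory receptor, rose by 0.96 ± 0.12 and IL6ST, the signalling chain gp130 of the interleukin-6 receptor, by 0.89 ± 0.18; neither was called with the block or without either Ctrl array.

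In cytokine and stress signalling the members went both ways. For comparison, 2.18% of all genes tested rose and 2.92% fell. Of 12 genes of the JAK-STAT axis SOCS2 and IL6ST rose, whereas CISH, another feedback inhibitor, fell by 0.80 and PIM1, a kinase induced by STATs, by 0.69. CISH and PIM1 were not called with the block or with any 1 array left out. Of 16 interferon-stimulated genes IRF9, which joins STATs in the ISGF3 complex, and IRF1 rose, each by 1.23, and both were called with the block but not without Ctrl replicate 1 or 2. Of 19 NF-kB subunits and targets NFKBIA, the inhibitor of NF-kB, rose by 0.96 ± 0.16 together with CFLAR, neither of them called with the block, whereas ICAM1 and BIRC3 fell. ICAM1, a ligand of leukocyte integrins, measured 14.15 and 14.07 in Ctrl, 12.85 and 12.79 in SA and 12.38 and 12.54 in LA, and fell by 1.47 ± 0.12 (adjusted p = 0.00786). Of 16 immediate early genes 3 rose (18.8%) and 0 fell. JUN, an AP-1 subunit, measured 9.30 and 9.67 in Ctrl, 12.43 and 12.66 in SA and 10.75 and 10.12 in LA. KLF6 rose mainly in SA (1.87 and 0.20) and IER2 mainly in LA (0.16 and 1.31), and neither was called with the block.

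Genes that set the threshold of apoptosis were split as well. BCL2, the survival protein, measured 12.52 and 12.41 in Ctrl, 13.99 and 14.20 in SA and 13.25 and 13.17 in LA, a rise of 1.19 ± 0.13 (adjusted p = 0.0121). CFLAR, which blocks caspase-8, rose by 0.67 ± 0.11. BIRC3, an inhibitor of apoptosis, fell by 1.08 ± 0.15. PMAIP1, the BH3-only protein NOXA, measured 4.32 and 4.54 in Ctrl, 7.50 and 7.18 in SA and 5.09 and 5.18 in LA, a rise of 1.81 ± 0.15, and BAX, an effector of cell death, fell by 0.61 ± 0.11. BCL2 and PMAIP1 were called with the block, and CFLAR, BIRC3 and BAX were not. Without Ctrl replicate 1 or 2 neither BCL2 nor CFLAR was called.

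Cell cycle genes met the condition at both durations only in a few cases. Of 37 mitosis genes 3 fell, which is 8.11% against 2.92% of all genes and 4.07% of protein-coding genes: FOXM1, the transcription factor of the mitotic program, at 11.13 and 11.23 in Ctrl, 8.91 and 8.73 in SA and 10.53 and 10.51 in LA, UBE2C, which charges the anaphase-promoting complex, and BIRC5, survivin. BIRC5 was not called with the block, and the counts were 2 without Ctrl replicate 1 and 1 without Ctrl replicate 2. The list's medians had opposite signs, -1.491 in SA and 0.256 in LA. Of 35 DNA replication genes CDC6, a loader of the replicative helicase, fell by 1.25 ± 0.17 and MCM4, a helicase subunit, by 0.82 ± 0.11, and the LA differences of -0.42 and -0.05 were small beside those in SA of -2.09 and -1.59. That is 5.71% of the list; MCM4 was not called with the block, and neither was called without Ctrl replicate 1 or 2. In the unfolded protein response (30 tested), proteasome subunits (28), replication-dependent histones (29) and heat shock chaperones (14) 0 members met both conditions, though 3 of the first list and 1 histone gene passed the averaged test with overlapping arrays. XBP1, the plasma cell factor of that response, differed by 0.23 in SA and 0.01 in LA, and HSPA5, its chaperone BiP, by -0.17 and -0.33.

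At the cell surface and in the matrix several further genes fell. The heparan sulfate list had 14.3% of its tested members falling, against 2.92% of all genes. HS3ST3B1, which adds sulfate to heparan sulfate chains, measured 10.90 and 11.23 in Ctrl, 10.01 and 9.78 in SA and 8.99 and 8.84 in LA, and with SULF2 made up the 2 of 14 heparan sulfate genes that fell; both were called with the block and without either Ctrl array. S1PR2, a sphingosine phosphate receptor, measured 8.76 and 8.92 in Ctrl and 7.29 to 7.71 in acid. S100A10, the partner of annexin A2, measured 12.56 and 12.38 in Ctrl, 11.01 and 11.08 in SA and 11.26 and 11.44 in LA, and S100A6 fell by 0.68; S100A6 was not called with the block, and neither S100 gene without Ctrl replicate 1 or 2. GNPTAB, which builds the mannose-6-phosphate tag of lysosomal enzymes, measured 8.75 and 8.44 in Ctrl, 9.25 and 10.16 in SA and 12.64 and 12.14 in LA, and was not called without Ctrl replicate 2. GLA, a lysosomal galactosidase, fell by 0.72 ± 0.14. PSAT1, of serine synthesis, fell by 1.05 ± 0.15, and SLC6A9, a glycine transporter, rose by 1.03 ± 0.12. Single members also fell in the remaining lists: PRDX1, a peroxidase, by 0.99, NOLC1 and NCL, nucleolar proteins, by 0.80 and 0.61, GABARAPL1, of autophagosomes, by 0.57, and WNT5B, a Wnt ligand, by 0.93. None of GLA, PSAT1, SLC6A9, PRDX1, NOLC1, NCL, GABARAPL1 and WNT5B was called with the block.

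**Figure D4:**
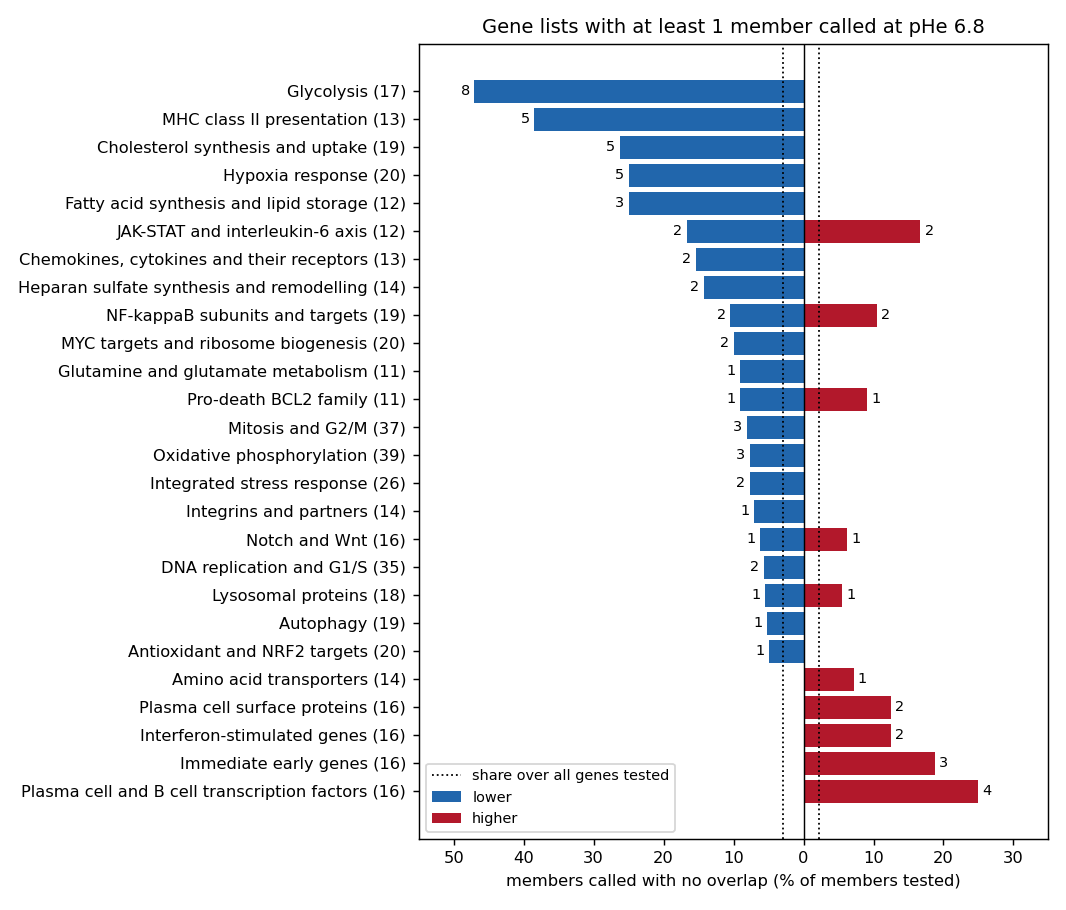
Share of the tested members that, in each gene list with at least 10 members tested and 1 called, rose (red, to the right) or fell (blue, to the left) at pHe 6.8 with no overlap between acid and Ctrl arrays, with the number of members at the bar and the number tested in brackets; dotted lines mark 2.92% lower and 2.18% higher over all genes. Glycolysis has the longest bar, with 8 of 17 members lower.

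The falling protein-coding genes were unevenly spread over chromosomes, a feature the choice of genes did not use. Of all 12038 protein-coding genes tested 4.07% fell and 2.43% rose. The share that fell was 10.2% on chromosome 9 (49 of 481), 9.74% on chromosome 10 (45 of 462), 7.4% on chromosome 11 (55 of 743) and 8.78% on chromosome 12 (56 of 638). On these 4 chromosomes together it was 8.82%, against 2.93% on the others, and with the replicate block 1.72% against 0.679%. Chromosome 22 had 13 falling genes of 268 and 0 rising ones. Its median protein-coding gene stood at -0.40 and -0.35 in SA and 0.01 and 0.04 in LA, relative to the mean of Ctrl. Relative to the mean of Ctrl, the median protein-coding gene of chromosome 9 stood at -0.38 and -0.44 in SA and -0.13 and -0.08 in LA, while the Ctrl arrays stood at -0.01 and 0.01. On chromosome 10 it stood at -0.29 and -0.29 in SA and -0.08 and -0.09 in LA, and on chromosome 11 at -0.28 and -0.27 and at -0.08 and -0.06. Chromosome 12 differed in that its median moved little, from -0.09 to -0.04 in acid, and its share of rising genes was also high, at 27 of 638. Medians below Ctrl were not confined to these chromosomes. Chromosome 17 stood at -0.11 and -0.12 in SA and -0.14 and -0.13 in LA. Chromosome 20 stood at -0.17 and -0.20 in SA and -0.16 and -0.09 in LA. Without Ctrl replicate 1 or 2 the counts of falling genes dropped on chromosomes 9 to 12 and also over all protein-coding genes. Those fits rest on 1 Ctrl array. Leaving chromosomes 9 to 12 out of the count, an alternative added after the data were seen, left 404 falling and 406 rising genes. The arrays measure RNA and not copy number.

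**Figure D5:**
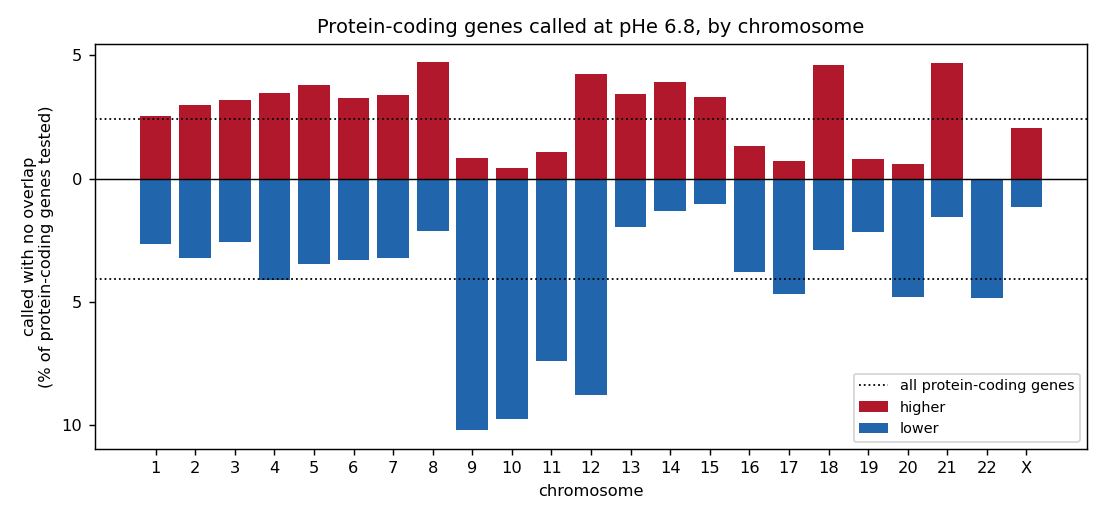
Share of tested protein-coding genes per chromosome that rose (red, upward) or fell (blue, downward) at pHe 6.8 with no overlap between acid and Ctrl arrays; dotted lines mark 2.43% and 4.07% over all protein-coding genes. Chromosomes 9, 10, 11 and 12 have the largest falling shares, from 7.4% to 10.2%.

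Many small nucleolar RNAs guide the chemical modification of ribosomal RNA. Of 121 tested 21 rose (17.4%, against 2.18% of all genes) and 0 fell, with a median of 0.473, made of 0.68 in SA and 0.139 in LA, against -0.034 over all genes. They held 13 of 82 C/D box and 8 of 37 H/ACA box genes. With the replicate block 6 were called. The count was 26 after either rescaling of the arrays, 3 without Ctrl replicate 1, 0 without Ctrl replicate 2, 7 without LA replicate 1 and 13 without LA replicate 2. SNORD71, SNORD8 and SNORD116-1 are named here after their values had been seen. SNORD71 measured 11.06 and 11.18 in Ctrl, 14.90 and 14.16 in SA and 11.61 and 11.92 in LA. SNORD8 measured 10.12 and 10.26 in Ctrl, 13.33 and 12.36 in SA and 10.83 and 11.04 in LA, and SNORD116-1 rose by 1.38 ± 0.14. In these 3 genes both SA arrays lay above both LA arrays.

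Among other transcripts, SOCS2-AS1, the antisense partner of SOCS2, rose by 2.05 ± 0.20 beside it, and no source used here says whether strand was kept, so the 2 signals cannot be told apart. LINC00869 measured 9.71 and 9.33 in Ctrl, 11.26 and 11.29 in SA and 11.18 and 11.43 in LA. HERC2P7, a pseudogene, measured 13.79 and 13.52 in Ctrl, 15.40 and 15.28 in SA and 15.97 and 16.17 in LA. Among genes not typed as protein-coding and called with the block, GAPDHP63, BNIP3P1 and PHBP9 fell most by the smaller of the 2 differences. Their averaged differences were -1.50, -1.85 and -1.38. The symbols of these 3 are those of pseudogenes, but no gene type was found for them. BNIP3P1 is a copy of BNIP3, so its signal is uncertain. Of 684 microRNA genes 5 rose and 3 fell, 0.731% and 0.439%, below the shares of all genes. The 3 called with the block are shown with the mature RefSeq sequence on GRCh38.p14, 5′ to 3′, and capitals mark the seed, bases 2 to 8. The arrays measure the precursor or its host transcript and not the mature RNA, and the 3 seeds differ. The mature sequences lie at chr1:51059879-51059900 (plus strand), chr7:30289815-30289837 (plus) and chr2:241477914-241477935 (plus).
MIR4421: aCCUGUCUguggaaaggagcua
MIR550A1: aGUGCCUGagggaguaagagccc
MIR3133: uAAAGAACucuuaaaacccaau
MIR4421 measured 3.81 and 4.18 in Ctrl, 5.64 and 4.97 in SA and 6.04 and 6.26 in LA. MIR550A1 measured 6.67 and 6.40 in Ctrl, 8.49 and 8.62 in SA and 6.91 and 7.11 in LA, and its LA arrays lay close to Ctrl. MIR3133 measured 4.08 and 3.77 in Ctrl, 4.37 and 4.79 in SA and 5.72 and 5.77 in LA, so that its larger difference was in LA. These 3 were also named after their values had been seen.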

How the data were processed

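Total RNA of LP-1 cells was purified on columns, amplified by in vitro transcription and copied into biotin-carrying cDNA for 6 arrays, per the labels' protocols. The deposited values are log signals, taken here as log2, made by the authors with RMA, which background-corrects, quantile-normalizes and summarizes probes; RMA and the Transcriptome Analysis Console are named in the submitters' processing notes without version. The base is not stated; values reach 20.0. No source used here gives the build.

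Of 135574 probe sets 36176 carried 1 gene symbol, 1119 several and 98279 none. Gene IDs of 25516 probe sets, of 25555 that had one symbol and an ID, were found in the RefSeq table of GRCh38.p14, used for gene type, chromosome and sequences. The brightest probe set per symbol was kept where its mean reached the median of all probe sets, which left 21070 genes. Promoters were found for 10021 of 12038 protein-coding genes. No match was found for 5561 tested genes, BIRC3 among them. They have no gene type or chromosome here and are outside the counts of protein-coding genes.

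Groups were fitted in R 4.3.3 with limma 3.58.1 (3 group means, empirical Bayes, two-sided, Benjamini-Hochberg adjusted p under 0.05); the main contrast was the mean of SA and LA minus Ctrl. The scripts were tested on simulated data. The number of arrays limits the precision. Within groups, 1.18% of the sum of squares went with replicate number, so the table holds almost no difference between the numbers, and the labels state no such removal. Deviations of same-numbered arrays from their group means correlated at -0.565 (Ctrl and SA), -0.469 (Ctrl and LA) and -0.413 (SA and LA), values that follow by construction where a replicate term is missing, so they cannot tell whether the numbers pair the samples. The fit counts 3 residual degrees of freedom where the block leaves 2, and its p-values and standard errors tend to be too small; blocked counts are therefore given where they change a count. Alternatives were that block, a fit with 2 groups, a trended robust prior, other filters, the mean of probe sets, 2 rescalings, leaving out each array, a minimum size and, added after the data were seen, leaving out chromosomes 9 to 12.

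The comparison and the 48 gene lists (885 genes) were chosen with earlier results of these data known. Protein-coding genes were named by rule. First came the 12 rising and 12 falling most by the smaller of the 2 differences, among genes called with and without the block. Next came 4 higher and 4 lower called genes that overlap, 6 of opposite sign, and the 4 with the largest excess in SA and 4 in LA. Up to 4 genes per list and the acid-handling lists were named too. By the rule of the 12, 3 rising and 3 falling genes not typed as protein-coding were added. HK1, PGAM1, TM7SF2, HLA-DPA1, CIITA, HIF1A, VEGFA, XBP1, HSPA5, ATP6V1F and ATP6V0E1 were named outside these rules, after their values had been seen.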

Additional observations from a re-analysis of the deposited data

Results flagged for a closer look

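The differences from Ctrl at the 2 durations differed, by the LA minus SA contrast of the same fit, in 30 of the 51 genes named by rank (adjusted p from 1.6e-05 to 0.033; values are LA minus SA on the log scale taken as log2). Among genes of the common response the LA value was the lower in RASGEF1B (-1.60), FAT1 (-1.74), HEY1 (-2.49), CFAP126 (-6.22), NSG2 (-5.21), TMEM140 (-4.40), RCAN2 (-3.16) and SULF2 (-3.34). It was the higher in CD180 (7.66), DRAM1 (2.78), ID3 (2.73), HERC2P7 (0.73), NDNF (2.16), FHL3 (0.87), CEP55 (1.62) and GNAL (2.03), the last 4 being falling genes whose fall was smaller in LA. With the replicate block the contrast did not pass in HERC2P7 (adjusted p = 0.116) and FHL3 (adjusted p = 0.065).

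Among called genes whose arrays overlap the contrast was 8.03 in RANBP3L, -7.57 in NCAM1, 8.40 in TTN, 4.88 in SYCP3, -5.98 in CD48, 5.73 in EMP2, -9.32 in SLAMF7 and -5.44 in IL6R. Among genes of opposite sign it was 9.41 in TMT1A, -6.10 in S100A11, 7.87 in ITGB7, 6.13 in S1PR1, -4.97 in HVCN1 and 4.57 in TMEFF1. Both of these sets, and CD180, SULF2, DRAM1, ID3, CFAP126, NSG2, TMEM140 and RCAN2, were named for a gap between the durations, so the contrast describes them and adds no support.

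The 45317 probe sets with no gene symbol or several that reached the median gave 19 higher and 14 lower calls with no overlap. That is 0.0728% of them, against 5.1% of the genes tested. The adjustment behind the 5.1% covered the genes alone and not these probe sets. The shares therefore rest on different p-value cutoffs, and the size of the gap between them cannot be interpreted.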

How the results depend on the processing

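The counts of the common response rest on few arrays. With the replicate block 174 genes were called higher and 132 lower (572 and 719 without it), 142 and 115 of them with no overlap (459 and 616), and LA minus SA was called in 253 of the 1075 instead of 439; the block leaves 2 residual degrees of freedom instead of 3. The 2-group fit called 5 higher and 6 lower, all with no overlap, since it counts the gap between SA and LA as spread. Leaving out 1 array gave 55 to 436 genes called higher and 54 to 595 lower, and with no overlap 48 to 353 higher and 49 to 494 lower; the arrays that moved the count by over 1.5 times were Ctrl replicate 2 (48 and 49), Ctrl replicate 1 (116 and 76), LA replicate 1 (183 and 182), LA replicate 2 (221 and 211) and SA replicate 2 (341 lower). With 1 Ctrl array left, it is assumed to vary like the other groups. Requiring both differences to reach 1 left 82 and 82, fewer by construction, and leaving out chromosomes 9 to 12 left 404 falling genes. The other settings kept the counts within 1.5 times, and 958 of the 1079 genes called after repeated quantile normalization were among the 1075. Of the 113 named genes 0 reversed under the settings run; the block lost the call of 38, and leaving out Ctrl replicate 2 that of 64. Whether the numbers pair the samples cannot be told from a table that lacks a replicate term. The p-values of the fit without the block tend to be too small, so a call lost under the block is less certain. Values near the median of 3.77 have no detection call.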
